A study of Apocynum venetum with 18 samples.

Results

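The first 2 hours in salt were examined in leaf RNA of Apocynum venetum, a salt-tolerant shrub grown for its bast fibre and its leaves. The comparison takes 6 of the 18 RNA sequencing libraries of the series, chosen by their labelled sampling time: 3 labelled 0 h and 3 labelled 2 h. All 6 carry the same label for the material (wild plants, with no cultivar given), for the tissue (leaf) and for the treatment (nutrient solution with 300 mmol/L NaCl), so the 0 h group is labelled with salt as well. The design text speaks of 18 wild seedlings and of a control group moved to fresh solution without NaCl, but no library used here carries an unsalted label. The comparison is therefore between 2 sampling times, and 2 hours in salt cannot be told apart from transfer and handling or from the difference in clock time. Nothing in the labels ties a library to its own plant, so p-values measure the spread between libraries, which may be technical.

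Salt reaches a leaf in phases. Within minutes to hours of roots meeting salt, the lower water potential outside acts as an osmotic stress, calcium and abscisic acid signals rise, stomata close and transcription factors and protective proteins are induced; sodium builds up in leaves later and is met by transporters that export it or store it in the vacuole. Sampling soon after transfer is the usual way to catch the osmotic phase. Which of these genes moved here cannot be read from the data. The features carry IDs of transcripts assembled without a genome, and the deposited annotation was not used to name them. They are described by level, size of change, length and time, and 4 of them by ID. For the same reason the leaf label could not be checked against leaf marker genes.

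Expression was given for 53545 features, of which 45222 had enough counts to be tested. Each was the only feature with its combination of Trinity gene number and final ID digit. Total estimated counts were 17933939 to 22432087 per library, and 29041 to 30244 features per library reached 1 CPM. CPM is a count per 1000000 of the library size, scaled as described under processing. The 100 most abundant features held 12.2% ± 0.603 (SD, n = 3) of the counts at 0 h and 12.1% ± 0.322 at 2 h. The difference was within the spread between libraries (two-sided exact permutation test, p = 0.9, where 3 libraries against 3 can reach 0.1 at the lowest). With FPKM in place of counts the 2 h share was 14.7% ± 0.646, lower than that of 0 h by a difference of -1.34 percentage points (exact permutation p = 0.2).

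Before any change is given, the libraries have to be described, because 2 of them lay between the groups. The libraries labelled 0 h replicates 1 and 3 resembled each other closely, with a Spearman correlation across tested features of 0.940, and so did 2 h replicates 1 and 3, at 0.953. Between these 4 libraries, correlations across the 2 times were lower, from 0.831 to 0.859. Among all 17 other libraries of the series, the one most like the library labelled 0 h replicate 2 was 2 h replicate 3, at 0.920, and it correlated with 0 h replicates 1 and 3 at 0.893 and 0.880. The library labelled 2 h replicate 2 was most like 0 h replicate 3, at 0.916. It correlated with 0 h replicate 1 at 0.900 and with 2 h replicates 1 and 3 at 0.882 and 0.902. These 2 libraries also correlated with each other at 0.914. These correlations are across features of single libraries and are given as a description. They are called the intermediate libraries here, and counts of calls and median log2 changes are given with and without them. Some other results are given with them only, among them levels over time and the libraries in which features were highest. Since the intermediate libraries were singled out from expression values, counts without them are not independent of that choice.

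**Figure D1:**
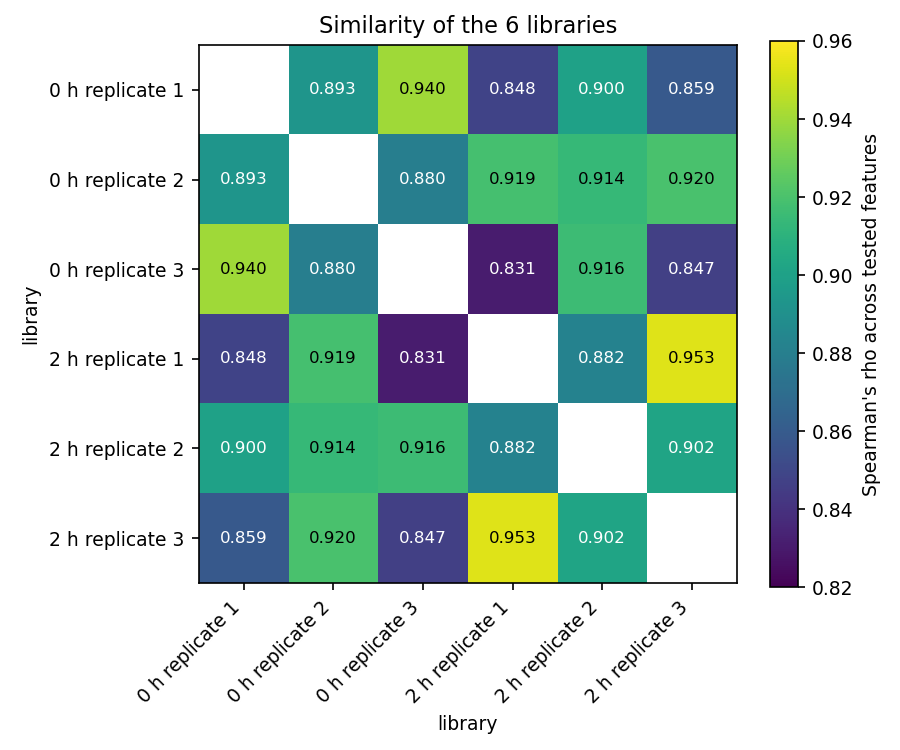
Spearman correlation across 45222 tested features for each pair among the 3 libraries labelled 0 h and the 3 labelled 2 h, on both axes, with colour and number giving rho. Replicates 1 and 3 of each time stand together (0.940 and 0.953), while both libraries numbered 2 stand nearer to the other time than those do.

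With all 6 libraries, 227 features rose and 97 fell between 0 h and 2 h. A feature was called when its Benjamini-Hochberg adjusted p in edgeR's quasi-likelihood test was under 0.05 and its log2 change at least 1 in either direction. Together the calls were 0.716% of features tested, with 0.502% rising and 0.214% falling. Without the intermediate libraries, 3243 features rose and 2552 fell, 12.4% of the 46566 tested (6.96% rising and 5.48% falling). Of the 227 rises, 224 were among the 3243, which is 98.7% of the shorter list and 6.91% of the longer. All 97 falls were among the 2552, which is a small share of the longer list. The fits share 4 libraries, so this overlap is not a repeat of the experiment.

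In most features called with all 6 libraries, the libraries numbered 2 kept to their labelled side. The test favours such features, and many features that were not called also kept to it. The 2 groups of 3 did not overlap in 225 of the 227 rises and in 85 of the 97 falls; among all tested features the 2 h libraries lay wholly above the 0 h libraries in 9.88% and wholly below in 7.27%. The rises stood at a median of 0.531, 0.784 and 0.722 CPM in 0 h replicates 1, 2 and 3, and at 6.64, 3.21 and 7.73 CPM in those of 2 h. No count was found in any 0 h library for 33 of them. The falls stood at a median of 44.1, 8.67 and 32.8 CPM at 0 h and at 3.75, 3.90 and 3.52 CPM at 2 h. In each case the intermediate library had the lowest median of the higher group.

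Changes that passed the test were large, which the choice favours. Over all tested features the median half-width of the 95% interval of the log2 change was 1.21 with all libraries. How far the choice raised the estimates was not tested. Rises had a median log2 change of 2.79. It was 2.68 when features with no count at 0 h were set to a floor of 3 counts summed over that group. Falls had a median of -2.90, and 3 of them had no count at 2 h. A log2 change of at least 3 was reached by 103 of the rises and 48 of the falls. Over all tested features the median change was 0.031, with quartiles of -0.42 and 0.56. Without the 2 libraries the median was 2.50 among rises (2.41 with the 459 silent features at the floor) and -3.22 among falls (-3.08 with 316 at the floor), and the quartiles over all features were wider apart, at -0.62 and 0.84. A feature that missed the threshold was seldom shown to be stable: the 95% interval of the change lay wholly within a log2 change of 1 either way for 10836 features (24.0%) with all libraries and for 7343 (15.8%) without the 2.

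The share of counts held by called features also differed between the lists. The 227 rises held 0.149%, 0.218% and 0.151% of counts in 0 h replicates 1, 2 and 3 and 0.564%, 0.549% and 0.685% in those of 2 h. The 97 falls went from 1.03%, 0.221% and 0.780% to 0.0865%, 0.129% and 0.0912%. The 3243 features called as rises without the 2 libraries held 4.87% and 4.76% of counts in 0 h replicates 1 and 3 and 19.2% and 18.8% in 2 h replicates 1 and 3. In the 2 libraries left out they held 14.1% in that labelled 0 h and 10.5% in that labelled 2 h. The matching 2552 falls went from 15.8% and 17.8% to 3.02% and 3.45%, while the left-out libraries held 4.52% at the 0 h label and 10.1% at the 2 h label. In both directions the order of the left-out libraries by share of counts was the reverse of their labels. This describes what set them aside and tests nothing.

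**Figure D2:**
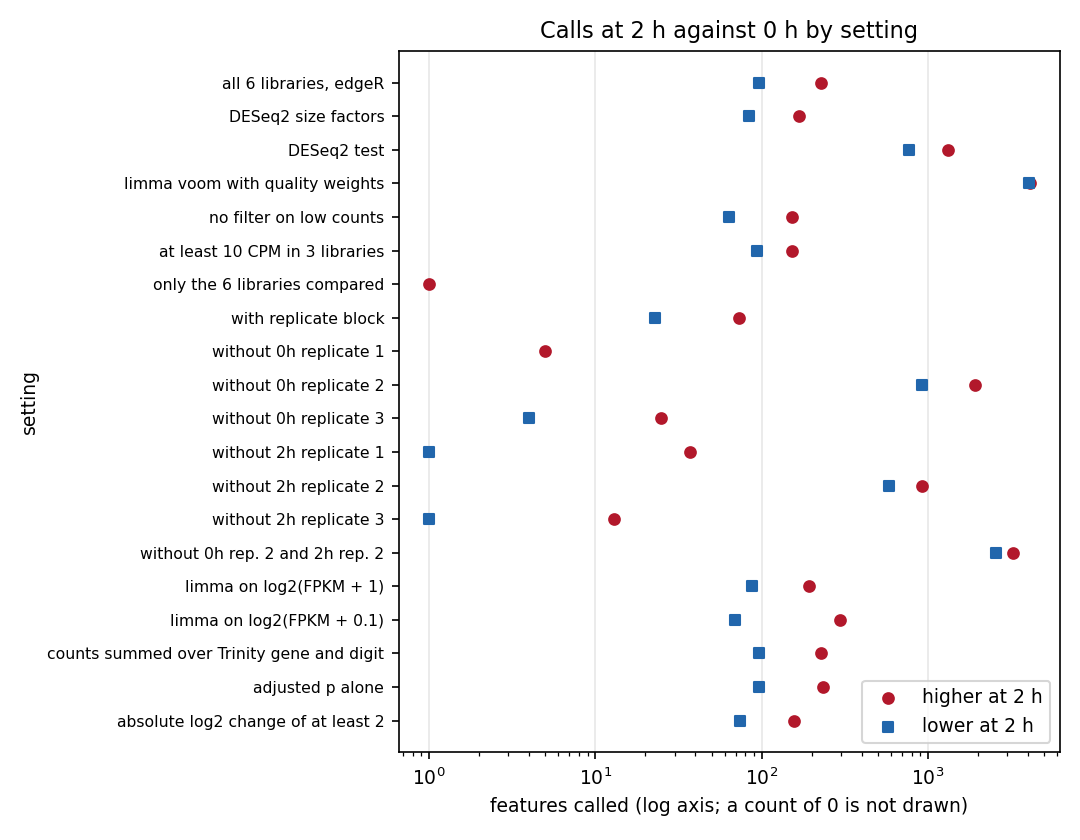
Number of features called higher (circles) or lower (squares) at 2 h than at 0 h, on a log axis, under each way of processing listed on the vertical axis. Counts run from 1 rise with only the 6 libraries compared to 4092 rises and 4035 falls with limma voom and weights per library.

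The intermediate libraries were set aside because they did not follow the difference between the other 4, so their values on the 3243 rises and 2552 falls describe how far they departed from it and test nothing. In the other 4 libraries the median log2 difference between 2 h and 0 h was 2.26 for the rises. The same difference between the intermediate libraries was -0.23, and 1215 of the rises (37.5%) were higher in the library labelled 2 h. For the falls, the other 4 libraries gave a median of -2.80, while the left-out libraries gave 0.96 in the opposite direction, and 490 of the falls (19.2%) were lower in the library labelled 2 h. A difference of at least 1 on the log2 scale in the called direction was seen for 392 of the rises (12.1%) and 128 of the falls (5.02%). One of at least 1 against the called direction was seen for 674 (20.8%) and 1246 (48.8%). Over all features tested in that fit the same difference was 1 or more in 16.7% and -1 or less in 13.5%, with a median of 0. The departure was thus larger for the falls, most of which were higher in the library labelled 2 h, than for the rises.

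How far between the groups they lay can be put as a position, again as a description of what set them aside. Each was placed on a line, per feature, from the mean log2 CPM of 0 h replicates 1 and 3 (position 0) to that of 2 h replicates 1 and 3 (position 1). The library labelled 0 h replicate 2 had a median position of 0.647 over the rises and 0.774 over the falls, and it lay past the midpoint in 64.5% and 84.9% of them. The library labelled 2 h replicate 2 had a median of 0.510 over the rises and 0.375 over the falls, with 51.4% and 36.8% past the midpoint. Features differed widely: the quartiles of position ran from 0.358 to 0.867 for the rises and from 0.603 to 0.957 for the falls in the former library, and from 0.298 to 0.724 and from 0.156 to 0.632 in the latter. Because the features were chosen for a large difference in the other 4 libraries, a further library of either time would be drawn somewhat towards the middle, and by how much was not tested.

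**Figure D3:**
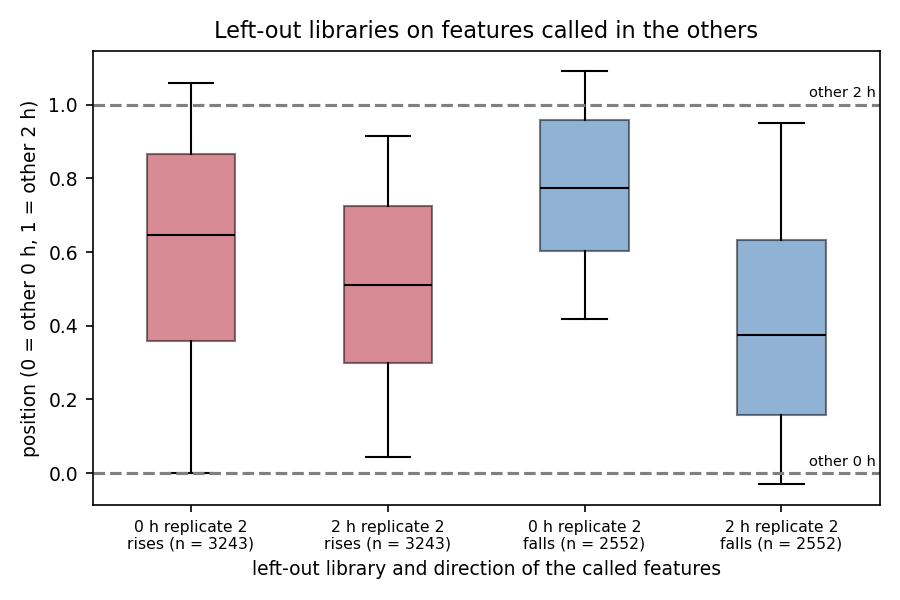
Position of the intermediate libraries, labelled replicate 2 of 0 h and of 2 h, on features called in the other libraries, where 0 is the mean of the other 0 h and 1 of the other 2 h libraries on the log2 CPM scale. Boxes span the quartiles with the median as a line, and whiskers reach the 10th and 90th percentiles; medians are 0.647 and 0.510 for 3243 rises and 0.774 and 0.375 for 2552 falls.

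By size of the change, these shares followed no steady order. Of the 1025 falls of at least 4 on the log2 scale, 112 (10.9%) were lower in the library labelled 2 h replicate 2 than in that labelled 0 h replicate 2, and the median difference was 1.80 upwards. Of the 841 falls between 2 and 4, 214 (25.4%) were lower, and of the 686 between 1 and 2, 164 (23.9%). Among rises the share higher in the library labelled 2 h was 35.9% of 1163 between 1 and 2, 35.6% of 1220 between 2 and 4 and 42.2% of 860 at 4 or more. The median position of the library labelled 0 h replicate 2 went from 0.689 in the smallest rises to 0.525 in the largest, and from 0.811 to 0.777 in the falls. These shares were not compared by a test.

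Individual features show what passed in all 6 libraries. The 2 largest rises and the 2 largest falls are given among features called with and without the 2 libraries, with at least 10 CPM in each library of the higher group, at least 10 counts over the lower group and no overlap between the groups; 66 rises and 41 falls met these conditions. TRINITY_DN12135_c0_g1_i2_7, of 1261 nucleotides, stood at 3.27, 3.67 and 2.45 CPM in 0 h replicates 1, 2 and 3 and at 50.7, 52.8 and 56.5 CPM in 2 h replicates 1, 2 and 3. All 3 libraries of each time lay close together, those numbered 2 included. Its log2 change was 4.09 (SE 0.32, adjusted p = 4.9e-05 in edgeR's quasi-likelihood test) and 4.24 (SE 0.41, adjusted p = 6.4e-05) without the 2 libraries. It passed under each of the 16 alternatives and was the only feature called when just the 6 libraries were fitted, with an adjusted p of 0.021.

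The second rise varied more between libraries. TRINITY_DN17450_c0_g1_i9_4, of 5988 nucleotides, stood at 1.88, 2.55 and 1.28 CPM at 0 h and at 23.5, 15.3 and 42.9 CPM at 2 h. The lowest 2 h value and the highest 0 h value were those of the libraries numbered 2, and the groups stayed far apart. Its log2 change was 3.84 (SE 0.50, adjusted p = 0.0074 in edgeR's test) and 4.40 (SE 0.58, adjusted p = 0.00039) without the 2 libraries. It missed the threshold without 0 h replicate 1 (edgeR adjusted p = 0.070) and when just the 6 libraries were fitted (0.34), and on the log2(FPKM + 1) scale, which understates changes of low features, its change was 2.17.

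Both named falls rested on 0 h libraries that differed among themselves. TRINITY_DN16700_c0_g2_i1_2, of 1714 nucleotides, stood at 39.0, 11.1 and 21.7 CPM at 0 h and at 0.213, 0.535 and 0.129 CPM at 2 h, where the libraries held 5, 14 and 3 counts. On the log2 scale it changed by -6.30 (SE 1.12, adjusted p = 0.023 in edgeR's test) and -7.41 (SE 1.47, adjusted p = 0.0048) without the 2 libraries, and its adjusted p was 0.065 to 0.14 without any 1 of the 4 libraries numbered 1 and 3. TRINITY_DN16763_c0_g1_i2_4, of 737 nucleotides, stood at 530, 17.1 and 239 CPM at 0 h and at 6.22, 2.83 and 3.52 CPM at 2 h. The library labelled 0 h replicate 2 was far below the other 0 h libraries and still above those of 2 h. On the log2 scale it changed by -5.97 (SE 0.94, adjusted p = 0.014 in edgeR's test), and -6.29 (SE 0.74, adjusted p = 0.00019) without the 2 libraries. It missed the threshold when replicate 1 of either time or 2 h replicate 3 was left out, with edgeR adjusted p of 0.056 to 0.10. Neither fall passed when just the 6 libraries were fitted (adjusted p = 0.34 for each in edgeR's test).

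After 2 h these 4 features took different courses. TRINITY_DN12135_c0_g1_i2_7 was highest at 2 h, with 53.3 CPM ± 2.95 (SD, n = 3). Its means for 6, 12, 24 and 48 h were 14.2 ± 4.13, 29.3 ± 6.28, 33.6 ± 7.65 and 16.3 ± 6.50 CPM, all above that of 0 h. TRINITY_DN17450_c0_g1_i9_4 had means of 27.2 ± 14.2, 25.1 ± 16.9, 32.5 ± 10.0, 31.4 ± 4.01 and 15.6 ± 3.01 CPM for 2, 6, 12, 24 and 48 h, each far above 0 h. TRINITY_DN16700_c0_g2_i1_2 was lowest at 2 h, with 0.292 CPM ± 0.215 beside 23.9 ± 14.1 at 0 h. For 6, 12, 24 and 48 h its means were 24.4 ± 28.7, 23.7 ± 1.99, 20.7 ± 13.4 and 10.9 ± 8.39 CPM, with 6 h libraries that lay far apart. TRINITY_DN16763_c0_g1_i2_4 had means of 4.19 ± 1.79, 87.2 ± 73.0, 1.42 ± 0.391, 9.51 ± 3.94 and 6.50 ± 0.422 CPM for 2, 6, 12, 24 and 48 h, all below the 262 ± 257 CPM of 0 h and highest at 6 h. The later comparisons share the 0 h libraries with that of 2 h, so these courses are levels and not independent repeats of it.

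**Figure D4:**
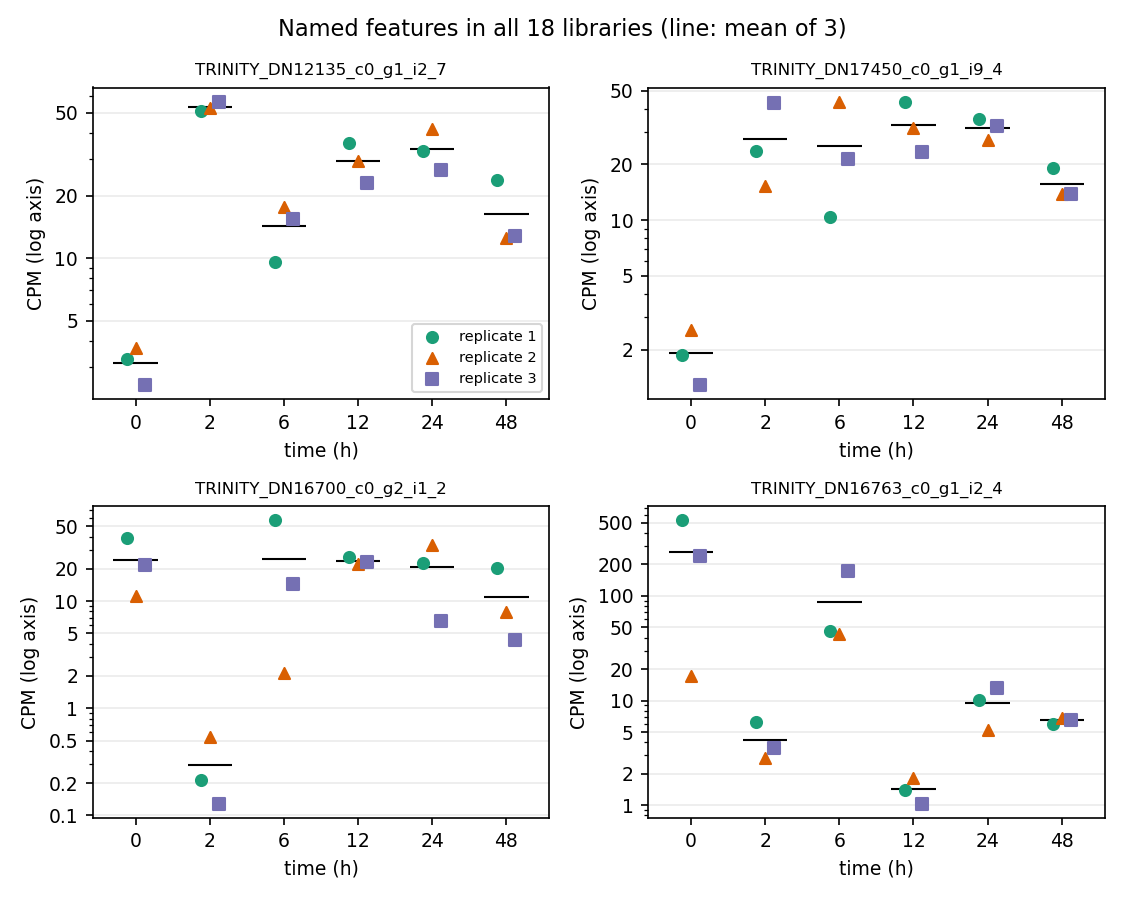
Level in CPM, on a log axis, of the 2 named rises (top) and 2 named falls (bottom) in all 18 libraries by sampling time, with a marker per replicate and a line at the mean of 3. In each panel the 3 libraries of 0 h and the 3 of 2 h do not overlap, which the choice of features required.

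Levels of the called features at later times are given as a description. The features were chosen for low or high values in the same 0 h libraries, which moves every later change from 0 h in the called direction, and by how much was not tested. The 227 rises had a median level of 0.676 CPM at 0 h and 6.05 CPM at 2 h, followed by 5.72, 7.18, 7.89 and 6.12 CPM for 6, 12, 24 and 48 h. Against the same 0 h libraries, their median log2 changes for 2, 6, 12, 24 and 48 h were 2.79, 3.03, 3.30, 3.41 and 3.30. The 97 falls had a median level of 29.5 CPM at 0 h and of 4.14, 11.0, 6.68, 5.88 and 6.08 CPM for 2, 6, 12, 24 and 48 h. Their median log2 changes from 0 h for these times were -2.90, -1.31, -2.17, -2.21 and -2.42. Without the intermediate libraries, the medians in the same order were 2.50, 1.99, 2.49, 2.72 and 2.59 for the 3243 rises and -3.22, -1.87, -2.28, -1.77 and -1.75 for the 2552 falls.

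Steps between later times compare no 0 h or 2 h library. Their calls still come from the same fit, with dispersions shared over all 18 libraries, and features called at 2 h were chosen in part for a low dispersion and enough counts, so a share above that of all tested features is no result about them. From 12 h to 24 h, 21 of the 227 rises (9.25%) were called higher and 26 (11.5%) lower, against 1.96% and 2.99% of all tested features (4.95% together). Among the 97 falls 6 were called higher (6.19%) and 1 lower. From 6 h to 12 h, 2.47% of the 324 features were called, against 0.241% of all, and from 24 h to 48 h 0.309%, against 0.436% of all. Without the intermediate libraries these shares of the 5795 features were 3.21%, against 1.10% of all, and 1.95%, against 1.13% of all. In the fit without the 2 libraries, 287 of the 3243 rises (8.85%) were called higher from 12 h to 24 h and 182 (5.61%) lower, against 2.89% and 3.74% of all (6.63% together), and 161 of the 2552 falls (6.31%) were called higher and 112 (4.39%) lower. The step between 2 h and 6 h shares the 2 h libraries with the choice of features. In it 34 of the 97 falls (35.1%) were higher at 6 h, against 1.77% of all, as were 20 of the 227 rises (8.81%). Lower at 6 h were 4 of the falls and 7 of the rises, against 0.597% of all. Of the 324 features 20.1% were called in this step, against 2.36% of all, and of the 5795 features 12.7%, against 3.27% of all. Without the intermediate libraries the balance among rises was reversed: 1.11% of the 3243 rises were called higher at 6 h and 9.28% lower. Their median log2 change in this step was -0.53, beside 0.066 for the 227 rises with all libraries. Of the 2552 falls 15.2% were called higher and 0.470% lower.

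Calls were least frequent among features under 500 nucleotides. With all 6 libraries the share that rose was 0.243% under 500 nucleotides, 0.573% from 500, 0.497% from 1000 and 0.705% from 2000 upwards. The share that fell in these classes was 0.0404%, 0.168%, 0.439% and 0.240%, highest in the third class and not in the longest. Without the intermediate libraries the shares were 3.76%, 6.63%, 7.16% and 10.5% for rises and 2.07%, 5.95%, 8.97% and 5.84% for falls. The rises had a median length of 1410 nucleotides and the falls of 1598, beside 1009 over all tested features. Longer features collect more reads at the same abundance, and the share of calls by mean CPM, which is not per length, also differed: in the classes under 1, from 1 to 10, from 10 to 100 and over 100 CPM, 0.184%, 0.655%, 0.592% and 0.898% rose and 0.0283%, 0.216%, 0.446% and 0.0945% fell. Without the intermediate libraries 2.90%, 7.82%, 9.08% and 17.7% rose and 4.49%, 5.08%, 6.97% and 7.18% fell. The part of read number in the length pattern was not tested.

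The direction of the calls went with the last digit of the feature ID, which runs from 1 to 9. Features ending in 1 made up 13.5% of those tested but 38 of the 97 falls (39.2%) and 2 of the 227 rises (0.881%). Those ending in 3 made up 11.5% of those tested, 21 of the falls (21.6%) and 15 of the rises (6.61%). Without the 2 libraries 16.6% of features ending in 3 and 8.57% of those ending in 1 fell, against 5.48% of all, and 2.17% and 2.07% rose, against 6.96% of all. Rises were most frequent among features ending in 6, at 10.7%, with 5, 7, 8 and 4 close, at 10.6%, 10.3%, 9.88% and 9.05%. For those ending in 9 the share was 6.13%. With all 6 libraries the shares that rose for digits 4, 5, 6, 7, 8 and 9 were 0.629%, 0.902%, 0.828%, 0.681%, 0.475% and 0.501%, against 0.502% of all.

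**Figure D5:**
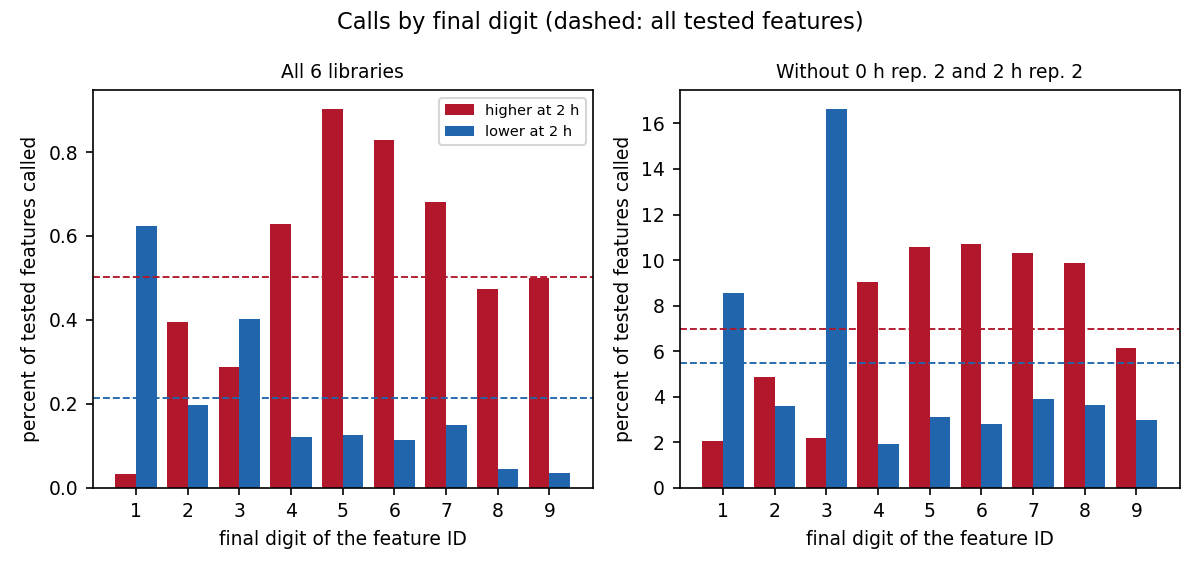
Percent of tested features called higher or lower at 2 h than at 0 h, by the last digit of the feature ID, with all 6 libraries (left) and without the intermediate libraries (right, another scale). Dashed lines give the percent over all tested features; falls stand above their line for digits 1 and 3.

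The same digit also went with the library in which a feature was highest, over all 18 libraries and features with a mean of at least 1 CPM. Features ending in 1 were highest in 0 h replicate 1 in 20.6% of cases and in the library labelled 0 h replicate 2 in 20.2%, against 7.76% and 8.03% of all such features. Those ending in 3 were highest in 0 h replicate 3 in 20.2%, against 6.96%, and in 6 h replicate 3 in 8.43%, against 3.32%. Those ending in 9 were highest in the library labelled 2 h replicate 2 in 13.0%, against 4.35%, and in 2 h replicate 3 in 7.86%, against 3.35%. Those ending in 8 were highest in 48 h replicate 3 in 13.4%, against 5.20%, and in 2 h replicate 1 in 13.5%, against 5.67%. The libraries were picked from the same values as having the 2 largest ratios for each digit, which lifts these shares. The part of the digit in the balance of rises and falls was not tested.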

How the data were processed

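Leaf RNA of 18 libraries was given in tables of the whole series, with 0 per-sample columns left unused, and groups were taken from the sample titles. The authors' deposited estimated counts (89.6% not whole) were rounded. The authors also deposited FPKM values. Count over FPKM gave feature lengths, with the depth of each library set to the value that brought lengths nearest to whole numbers. This depth was 86.0% to 87.9% of the summed counts. Lengths were within 0.1 nucleotides of a whole number for 99.99%, which that choice of depth favours. The feature IDs have the form of Trinity transcript IDs, under a column headed gene_id. The aligner and counting tool were not given in the sources used here. Annotation columns were not used.

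filterByExpr and TMM preceded a model of 6 groups on all 18 libraries (edgeR 4.0.16, R 4.3.3), with quasi-likelihood tests of contrasts and p-values adjusted over all tested features. An SE is the log2 change divided by the root of its F statistic. Library sizes scaled by TMM gave CPM, and a prior count of 2 was added for log2 CPM. The floor of 3 counts covers counting error only. Named features followed the rule given with them. The comparison, rules and alternatives were chosen with earlier results of these data known. The code of the fit and of the position measure was tested on simulated data. Data for the fit held no intermediate library. Data for the position held counting noise only, with no choice of features by calls, so neither covers the setting here. Alternatives were DESeq2 1.42.0 (size factors or test), limma 3.58.1 voom with quality weights, limma on log2(FPKM + 1) or log2(FPKM + 0.1) with FPKM of at least 1 in 3 libraries, other filters and thresholds, a replicate block, the 6 libraries alone, libraries left out, and sums over Trinity gene and final digit. Python 3.11.15, pandas 2.3.3 and scipy 1.17.1 made the tables.

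Replicates of a time differed beyond sampling noise (chi-square over degrees of freedom was at least 10.9), and none was counted as a repeat.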

Additional observations from a re-analysis of the deposited data

How the results depend on the processing

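The number of calls depended on how the intermediate libraries (those labelled replicate 2) were treated and on the test. Against 324 calls (70.1% rises), there were 5795 (56.0%) without both libraries, 8127 (50.4%) with limma voom, which weighted them at 0.333 and 0.354 and the other 4 at 1.06 to 3.84, 2083 (63.1%) with the DESeq2 test, and 1 (100%) with only the 6 libraries compared. Of the voom calls, 2744 rises (67.1%) and 2227 falls (55.2%) were also called without both libraries, 84.6% and 87.3% of those lists. With a single library left out, calls ran from 5 to 2834 and the share of rises from 61.5% to 100%. Dropping replicate 1 or replicate 3 of 0 h left 5 and 29 calls, dropping those of 2 h left 38 and 14, and dropping replicate 2 of 0 h or of 2 h raised the count to 2834 and 1505. The share of rises was 61.9% at 10 CPM in 3 libraries and 81.2% with limma on log2(FPKM + 0.1), where 298 rose and 69 fell; on log2(FPKM + 1) 192 rose and 88 fell. Summing over Trinity gene and final digit changed nothing, since each holds 1 feature. The cause of these differences was not tested.

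With the replicate block 96 features were called, 76.0% of them rises. Deviations of same-numbered libraries from their group means correlated at -0.084, -0.37 and -0.21 for numbers 1, 2 and 3. Deviations within a group of 3 are tied to one another, and the intermediate libraries lie off their groups. These values therefore cannot decide whether replicate numbers pair the samples.

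The median log2 change over all tested features, 0.031, was -0.0041 with DESeq2 size factors, -0.0040 with the DESeq2 test, 0.076 with voom, 0.00079 without a filter, -0.0044 at 10 CPM, -0.026 with only the 6 libraries, 0.086 without both libraries, 0 on either FPKM scale, and 0.0082 to 0.090 without single libraries. Over rises and falls together the left-out library labelled 0 h stood at 0.719, or 0.751 for features of at least 10 CPM and 0.705 with a prior count of 0.5. That labelled 2 h stood at 0.460, or 0.484 at 10 CPM and 0.445 for changes of at least 2. The share of the most abundant features differed by -0.013 percentage points (2 h minus 0 h) for 100 features and 0.453 for 500. It differed by -1.34 with FPKM in place of counts (exact permutation p = 0.2), -0.020 without both libraries, and -0.197 to 0.334 without single libraries. Of the features called at 2 h, 20.1% were called in the step to 6 h, 16.7% in that to 24 h and 0.309% in that to 48 h. These shares were 12.7%, 12.8% and 1.95% without both libraries. Over all tested features they were 2.36%, 4.95% and 0.436% with all libraries, and 3.27%, 6.63% and 1.13% without both. No setting reversed the change of a named feature. These features were chosen for large changes, for keeping their direction without both libraries and for groups that do not overlap, so this is no check of them.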

Other observations

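Final digits 2, 4, 5, 6 and 7 each went with a pair of libraries outside the comparison. Features ending in 7 were highest in 48 h replicate 1 in 27.8% of cases and in 48 h replicate 2 in 18.4%, against 10.1% and 5.93% of all features with a mean of at least 1 CPM. Features ending in 2 were highest in 6 h replicate 1 in 34.8%, against 11.7%. The 9 digits each took a different pair among the 18 libraries.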
